A study of Homo sapiens with 4 samples.

Results

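Potassium channels are membrane proteins that let potassium leave or enter the cell and so set its resting voltage. In adrenocortical cells this voltage controls calcium entry and, with it, steroid secretion. Here they were taken as the GENCODE protein-coding genes on hg19 whose symbol begins with KCN, without KCNJ5, KCNK3 and KCNK9, which left 92 of 20163 coding genes (95 with a KCN symbol before the 3 were set aside). The pore of a voltage-gated (Kv) channel opens when the membrane depolarises, inward rectifiers (Kir) pass current best near rest, tandem-pore (K2P) channels carry background current, and calcium-activated channels open when calcium rises. Auxiliary subunits change how a pore opens or where it is placed. By symbol the genes fell into 40 Kv pore subunits, 13 Kv auxiliary subunits (KCNAB, KCNE, KCNIP and KCNRG), 3 sodium-activated and related channels (KCNT and KCNU1), 14 Kir channels (KCNJ), 13 K2P channels (KCNK) and 9 calcium-activated channel genes (KCNMA1, its auxiliary KCNMB subunits and KCNN).

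Chromatin had been mapped by FAIRE-seq, which isolates DNA depleted of nucleosomes, in H295R/TR SF-1 cells. These are H295R cells, an adrenocortical tumour line, that carry a doxycycline-inducible copy of the nuclear receptor SF-1 (NR5A1), a regulator of steroidogenic genes. The 2 conditions, with 1 FAIRE library each, were basal SF-1 expression without doxycycline and overexpression of SF-1 brought about by doxycycline given for 3 days. The inducible SF-1 copy was present in both conditions, and the effects of the SF-1 dosage and of doxycycline itself cannot be told apart in this design. The 2 input DNA samples were not analysed here.

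The lists held 34423 basal and 31219 overexpression sites. Sites that overlapped between the lists, by 1 bp or more, are termed shared, and the remainder basal-only or overexpression-only. Sequencing depth is unknown, and the lack of a site in a list says only that none was called, not that the chromatin was closed. With 1 library per condition there was no test between conditions, and all 95% intervals cover counting error only, since genes and sites are not replicates. Of 10 adrenocortical marker genes, 8 had a basal and 7 an overexpression site within 10 kb of the gene, and 9 had a site in either list (MRAP had none). Of 7 genes that mark fibroblasts, endothelium, blood or liver, 4 had a basal and 5 an overexpression site within 10 kb, and PTPRC had none. A promoter site in either list was found at 7 of the 10 adrenocortical genes and at 1 of the 7 others. Of the 20071 coding genes other than the potassium channel genes, 70.2% had a basal and 71.1% an overexpression site within 10 kb. Neither list had a site within 10 kb for 22.5% of them, or a promoter site for 48.3%. With so few marker genes, the counts within 10 kb do not set either marker list apart from other coding genes.

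Several sequences show the motifs on which the later comparisons turn. SF-1 binds the words CAAGGTCA and CAAGGCCA, which were looked for over the full length of each site and on either strand, and capitals mark these words or their reverse complements. All sequences are the plus strand of GRCh37. The first 2 sites were shared by both lists and lay in introns of KCND2 and KCNMA1, which encode a Kv pore and the large-conductance calcium-activated channel. With the coordinates of the basal list, KCND2 is at chr7:120184551-120184849 and KCNMA1 at chr10:79361351-79361549. The KCND2 site held 3 words, 2 of which overlap.
KCND2: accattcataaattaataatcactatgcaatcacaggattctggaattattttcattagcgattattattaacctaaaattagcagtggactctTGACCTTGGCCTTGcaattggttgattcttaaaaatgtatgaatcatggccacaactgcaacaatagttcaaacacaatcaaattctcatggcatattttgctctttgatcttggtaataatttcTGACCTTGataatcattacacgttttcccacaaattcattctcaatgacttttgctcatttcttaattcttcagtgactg
KCNMA1: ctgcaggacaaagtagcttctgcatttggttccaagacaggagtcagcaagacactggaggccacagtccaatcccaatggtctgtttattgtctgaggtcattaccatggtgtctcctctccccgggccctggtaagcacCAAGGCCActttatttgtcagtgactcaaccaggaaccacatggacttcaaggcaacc

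The next 2 sequences are the only basal-only sites near a potassium channel gene with an SF-1 word. They lay in introns of KCNIP4, whose protein is a calcium-binding Kv auxiliary subunit, at chr4:20903451-20903699, and of the K2P channel gene KCNK13 at chr14:90572301-90572499.
KCNIP4: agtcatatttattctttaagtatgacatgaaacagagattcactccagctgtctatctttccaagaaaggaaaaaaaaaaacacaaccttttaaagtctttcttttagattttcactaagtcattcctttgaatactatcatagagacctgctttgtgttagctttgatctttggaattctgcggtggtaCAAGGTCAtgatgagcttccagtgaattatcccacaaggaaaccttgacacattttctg
KCNK13: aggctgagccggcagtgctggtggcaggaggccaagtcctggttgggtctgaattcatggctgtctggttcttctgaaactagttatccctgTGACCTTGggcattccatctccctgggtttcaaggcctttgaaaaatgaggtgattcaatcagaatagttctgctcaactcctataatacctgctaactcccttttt

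Overexpression-only sites with an SF-1 word are shown for KCNH7, a Kv pore of the ERG type, at chr2:163431701-163431899, and for KCNJ6, a Kir channel opened by G proteins, at chr21:39286501-39286699 and chr21:39369301-39369499. All 3 were 199 bp wide and intronic.
KCNH7: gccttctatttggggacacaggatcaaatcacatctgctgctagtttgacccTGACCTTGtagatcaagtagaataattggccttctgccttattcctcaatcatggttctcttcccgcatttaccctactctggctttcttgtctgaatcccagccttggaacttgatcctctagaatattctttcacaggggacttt
KCNJ6 first site: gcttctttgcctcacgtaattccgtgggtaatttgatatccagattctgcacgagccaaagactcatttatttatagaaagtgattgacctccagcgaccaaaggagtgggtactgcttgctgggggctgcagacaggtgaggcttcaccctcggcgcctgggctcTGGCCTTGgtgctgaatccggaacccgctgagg
KCNJ6 second site: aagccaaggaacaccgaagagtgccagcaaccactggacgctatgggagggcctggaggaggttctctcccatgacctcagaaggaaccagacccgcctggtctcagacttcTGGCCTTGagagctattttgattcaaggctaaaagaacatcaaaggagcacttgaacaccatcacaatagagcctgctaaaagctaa

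The repressor NRSF/REST silences neuronal genes, many of them ion channels, outside the nervous system. Its 17-letter consensus was searched with up to 1 mismatch. Below, capitals mark that match in the first KCNJ6 site, which is an exact one on the minus strand, in an overexpression-only site in an intron of KCND2 at chr7:119942701-119942899, and in a shared site in an intron of KCNN2, a small-conductance calcium-activated channel, given as the basal list has it at chr5:113702801-113703049. In the KCNJ6 site the NRSF/REST match covers the whole SF-1 word.
KCNJ6 first site: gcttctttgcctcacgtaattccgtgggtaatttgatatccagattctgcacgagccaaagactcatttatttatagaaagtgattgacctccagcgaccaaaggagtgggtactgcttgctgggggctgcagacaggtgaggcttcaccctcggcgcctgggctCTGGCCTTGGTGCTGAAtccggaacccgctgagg
KCND2: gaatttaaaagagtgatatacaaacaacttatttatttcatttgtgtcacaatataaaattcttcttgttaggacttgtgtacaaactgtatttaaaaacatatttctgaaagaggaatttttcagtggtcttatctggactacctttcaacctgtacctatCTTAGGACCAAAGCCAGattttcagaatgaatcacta
KCNN2: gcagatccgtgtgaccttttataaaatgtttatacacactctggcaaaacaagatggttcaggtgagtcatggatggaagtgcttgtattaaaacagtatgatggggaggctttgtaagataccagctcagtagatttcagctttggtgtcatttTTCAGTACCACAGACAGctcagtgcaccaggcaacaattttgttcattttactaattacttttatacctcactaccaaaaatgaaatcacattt

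Most potassium channel genes had no promoter site. A site within 1 kb of the start of a coding transcript was found in the basal list for 16 of 92 genes, or 17.4% (95% interval 10.3 to 26.7), against 44.9% of the 20071 other coding genes. In the overexpression list the share was 20 of 92, or 21.7% (13.8 to 31.6), against 46.9%. The potassium channel genes were longer than the others, with a median of 46.2 kb against 27.2 kb, and richer in G and C around the 5' end, with a median of 62.6% against 59.1% over 1000 bp. When the other genes were averaged at the lengths of the potassium channel genes, 45.7% had a basal and 47.4% an overexpression promoter site, which gave differences of -28.3 and -25.6 percentage points. When GC content at the 5' end was considered as well as length, the differences were -28.2 and -25.4. These averages are a description and were not tested. Among the 33 potassium channel genes in the most GC-rich class of starts (67.3 to 84.5% G and C), 4 (12.1%) had a basal and 8 (24.2%) an overexpression promoter site, against 46.0 and 49.7% of other genes in that class. The shares were below those of other genes in all 5 GC classes, by differing amounts. In the most GC-poor class (25.4 to 49.1%) the basal share was 17.65% of 17 genes against 24.2%. In the middle class (56.5 to 61.6%) it was 44.4% of 9 genes against 55.4%.

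**Figure D1:**
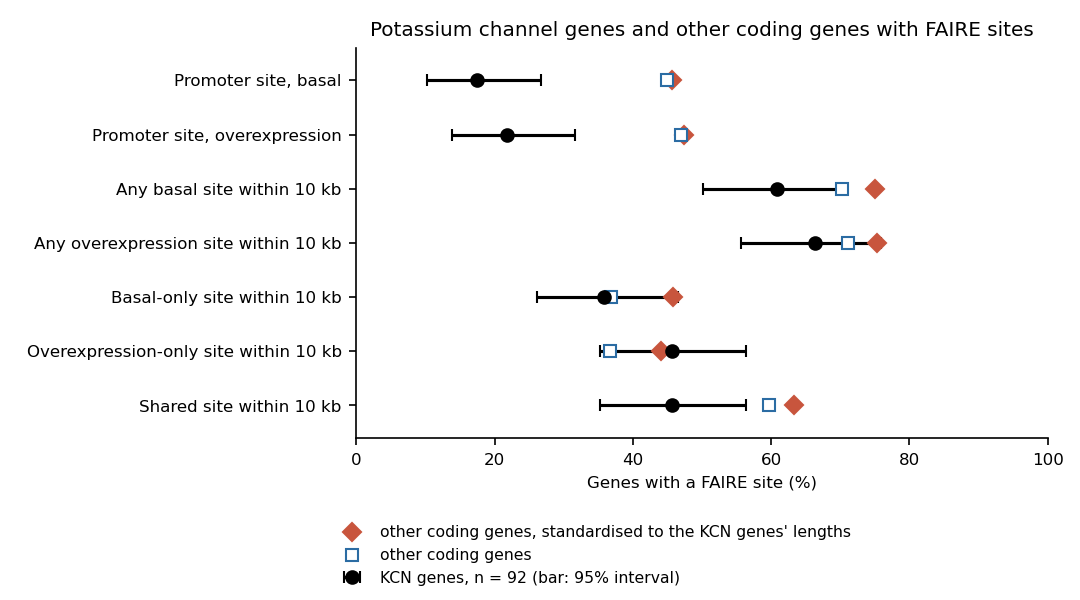
The x axis gives the percentage of genes with a FAIRE site of each kind, for the 92 potassium channel genes (black points, bars are 95% intervals), the other coding genes (squares) and the other coding genes averaged at the lengths of the potassium channel genes (diamonds). At promoters the black points lie at 17.4 and 21.7%, left of both comparison marks, whereas for overexpression-only sites the points and diamonds lie close together, at 45.7 and 44.0%.

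Of the 24 genes with a promoter site in either list, 12 had one in both. These 12 were 13.0% of the 92 genes, against 40.1% of other coding genes. A promoter site in the basal list alone was found for 4 genes, or 4.35%, against 4.80% of others, and one in the overexpression list alone for 8, or 8.70%, against 6.77%. The remaining 68 (73.9%, against 48.3% of others) had none in either list. The shares with a site in one list alone thus lay near those of other genes, and the genes named below for such sites are a description. The 12 included the Kv pore genes KCND2, KCNH4, KCNH6 and KCNH8, the auxiliary gene KCNAB2, the K2P genes KCNK5 and KCNK12, and the calcium-activated channel genes KCNMB4, KCNN2 and KCNN3. The promoter site of KCNAB2 lay within 1 kb of a start of NPHP4. In all, 6 of the 92 potassium channel genes shared their promoter window with another coding gene, against 4165 of the 20071 other coding genes. The promoter shares of other genes given here include such genes.

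The promoter sites of the basal list alone were at 2 Kv auxiliary genes and 2 Kir genes. KCNJ8, a pore subunit of ATP-sensitive potassium channels, had the widest, 349 bp at chr12:21927501-21927849, with its centre at -35 bp from the nearest start, minus meaning upstream. KCNJ16, a Kir subunit, had a site of 249 bp at chr17:68050101-68050349. KCNIP2 had one of 199 bp and KCNIP3 one of 149 bp, and both genes encode calcium-binding partners of Kv channels. KCNJ8 and KCNJ16 had further basal-only sites, 1 and 2 respectively, and no site of either gene was shared. In the overexpression list KCNJ8 had a single, intronic site, at chr12:21923601-21923849, which overlapped neither basal one, and KCNJ16 had none.

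The promoter sites of the overexpression list alone were at KCNG1, KCNH1, KCNH5, KCNIP4, KCNJ2, KCNK1, KCNN1 and KCNT1. The widest was at KCNT1, a sodium-activated channel, with 449 bp at chr9:138604601-138605049. KCNH1 and KCNH5, both pore subunits of the ether-a-go-go type, had sites of 349 and 249 bp. KCNG1, a modifier subunit that needs another Kv subunit to form a channel, had a site of 299 bp. KCNN1, a small-conductance calcium-activated channel, had 2, of 249 and 199 bp, at chr19:18061551-18061799 and chr19:18061901-18062099. KCNJ2, which encodes the classical strong inward rectifier and was singled out here after its values were seen, is the neighbour of KCNJ16 on chromosome 17. Its only site, overexpression-only and 149 bp wide, was at chr17:68165501-68165649, whereas the 3 sites of KCNJ16 were all basal-only.

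Sites within 10 kb of the gene body were found for 56 of 92 genes in the basal list, or 60.9% (50.1 to 70.9), and for 61, or 66.3% (55.7 to 75.8), in the overexpression list, against 70.2 and 71.1% of other coding genes. At the same gene lengths the other genes reached 75.0 and 75.3%, differences of -14.2 and -9.00 percentage points. Both lists had a site for 50 genes (54.3%, against 63.8% of other genes), the basal list alone for 6 (6.52%, against 6.42%), the overexpression list alone for 11 (12.0%, against 7.30%) and neither for 25 (27.2%, against 22.5%). Of those 25, 15 were Kv pore genes, 4 Kir, 2 K2P, 2 calcium-activated, 1 Kv auxiliary and 1 of the sodium-activated group. One of them, the Kir gene KCNJ12, has near-identical copies in the genome, and how reads from such copies were treated is not given, so that its lack of sites is uncertain.

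A shared site lay within 10 kb of 42 genes, or 45.7% (35.2 to 56.4), against 59.7% of other coding genes and 63.3% at the same lengths. A basal-only site was near 33 genes, or 35.9% (26.1 to 46.5), against 36.9% of others and 45.8% at the same lengths. An overexpression-only site was near 42 genes, or 45.7%, against 36.8% of others and 44.0% at the same lengths. At the same lengths, the difference between potassium channel genes and other genes was -17.6 percentage points for shared, -9.97 for basal-only and 1.61 for overexpression-only sites. The interval of the potassium channel genes held the length-averaged share of other genes for both condition-only classes and did not hold it for shared sites. With GC content considered too, the difference for overexpression-only sites was 0.840 points.

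In all, 148 basal and 154 overexpression sites lay within 10 kb of a potassium channel gene, so that the overexpression list had 1.04 times as many as the basal list (0.825 to 1.31). For all nuclear sites the ratio was 0.907, which lies inside that interval. Of the basal sites 78 were shared, or 52.7% (44.3 to 61.0), against 54.2% of all basal sites. Of the overexpression sites 77 of 154 were shared (95% interval 41.8 to 58.2%), against 59.7% of all. The condition-only sites numbered 70 basal and 77 overexpression, a ratio of 1.10 (0.785 to 1.54), against 0.798 for all sites. Condition-only sites were narrower than shared ones. Their median width was 199 bp in both lists, against 249 bp for basal and 299 bp for overexpression shared sites. Over all nuclear sites it was also 199 bp for both condition-only classes, against 299 bp for basal and 249 bp for overexpression shared sites. Near potassium channel genes the median GC content was 43.2% for basal-only and 50.2% for overexpression-only sites. Over all sites of these classes it was 40.5 and 46.5%.

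Most sites lay inside the genes and away from their starts, but the places of sites near other coding genes were not counted. Of the 148 basal sites, 17 were promoter sites, 2 exonic, 81 intronic and over 1 kb from a start, 18 upstream and 30 downstream. Of the 154 overexpression sites, 22 were promoter sites, 2 exonic, 87 intronic, 17 upstream and 26 downstream. Of the downstream sites, 15 basal and 17 overexpression ones were within 1 kb of a start of another coding gene, so that a number of the sites counted for a channel gene sat at the promoter of its neighbour. Of the basal sites, 13 of 18 upstream and 34 of 81 intronic ones were shared, a difference that was not tested.

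Intronic sites, counted by the site centre and with those near a start, numbered 87 with basal SF-1 expression and 92 with overexpression. Per 100 kb of the 12.6 Mb of intron this was 0.693 basal sites (exact Poisson 95% interval 0.555 to 0.855) and 0.733 overexpression sites (0.591 to 0.899), against 1.23 and 1.06 in the introns of other coding genes. Of these sites 36 were shared in each list, which is 41.4% of the basal ones (30.9 to 52.5) against 49.1% for other genes, and 39.1% of the overexpression ones (29.1 to 49.9) against 56.7%. The intronic values of other genes were taken over all their introns and not averaged at the lengths of the potassium channel genes. Whether the densities differ at the same gene lengths was not tested. Introns of the calcium-activated channel genes had 1.17 basal and 1.31 overexpression sites per 100 kb, from 24 and 27 sites. Within this group the density was 1.34 and 1.74 in KCNMA1, which held 10 and 13 of the sites, 1.21 and 0.453 in the KCNMB genes and 0.92 and 1.69 in the KCNN genes. Kir introns had 0.928 and 1.11 per 100 kb (10 and 12 sites) and K2P introns 1.03 and 0.737 (7 and 5 sites). The long introns of Kv pore genes held 29 and 31 sites, or 0.518 and 0.553 per 100 kb, and those of Kv auxiliary genes 16 and 14, or 0.634 and 0.555. The sodium-activated group had 1 and 3. Numbers in the smaller groups were too low to order the groups, and no difference between groups was tested.

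**Figure D2:**
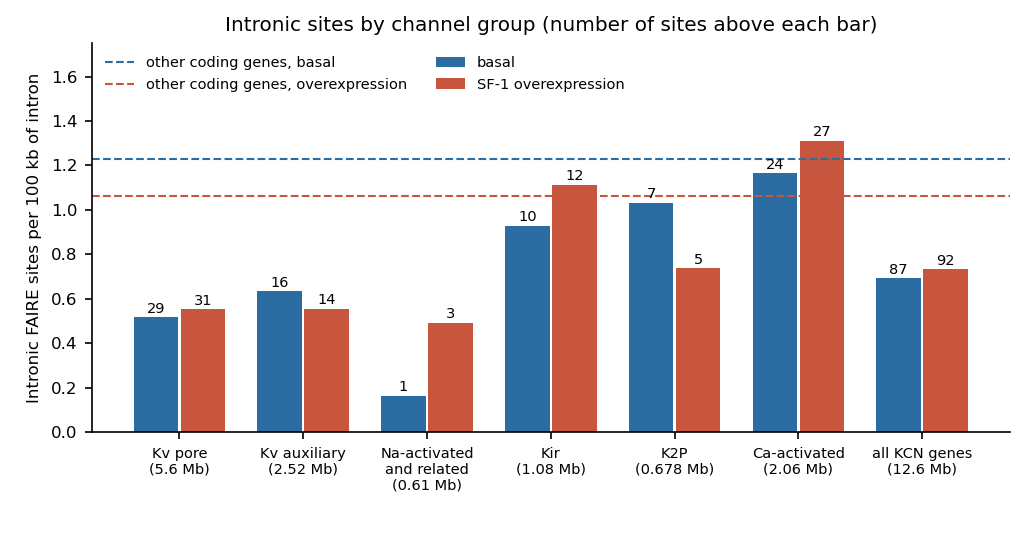
Bars give intronic FAIRE sites per 100 kb of intron in each channel group and list, with the number of sites above each bar and the summed intron length under each name, and dashed lines give the density for other coding genes, not averaged at the same gene lengths. The bars of the Kv pore group (0.518 and 0.553) lie below both lines, whereas those of the calcium-activated group (1.17 and 1.31) lie near or above them.

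By subfamily, the intronic sites were spread unevenly. Kv pore subfamilies with several included KCNH, with 13 basal and 12 overexpression sites in 8 genes, KCND, with 5 and 5 in 3 genes, and KCNQ, with 2 and 5 in 5 genes. The 8 KCNA genes, the Shaker type, held 1 and 1, both in KCNA2. No KCNA gene had a promoter site, and 6 of the 8, among them KCNA4, had no site within 10 kb in either list. KCNA7 had 3 overexpression-only sites, all outside the gene, and 1 of them was within 1 kb of a start of NTF4. The KCNG and KCNS genes together with KCNF1 and the KCNV genes held few, with 0 and 1 in KCNG, 1 and 0 in KCNS and none in KCNF1 and KCNV. Among auxiliary subunits KCNIP had 10 and 7, KCNAB 5 and 5, and KCNE 0 and 1. KCNMA1 alone held 10 and 13, the KCNMB genes 8 and 3 and the KCNN genes 6 and 11.

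Per gene, the median was 1 site in each list, and the 10 genes with most sites accounted for 40.6% of all pairs of a gene and a site. More overexpression than basal sites were found for 26 genes, more basal sites for 18 and equal numbers above 0 for 23. The numbers thus went both ways, and with so few sites per gene no single gene's difference had a check. Neither these counts nor the share held by the 10 genes with most sites was compared with other coding genes.

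**Figure D3:**
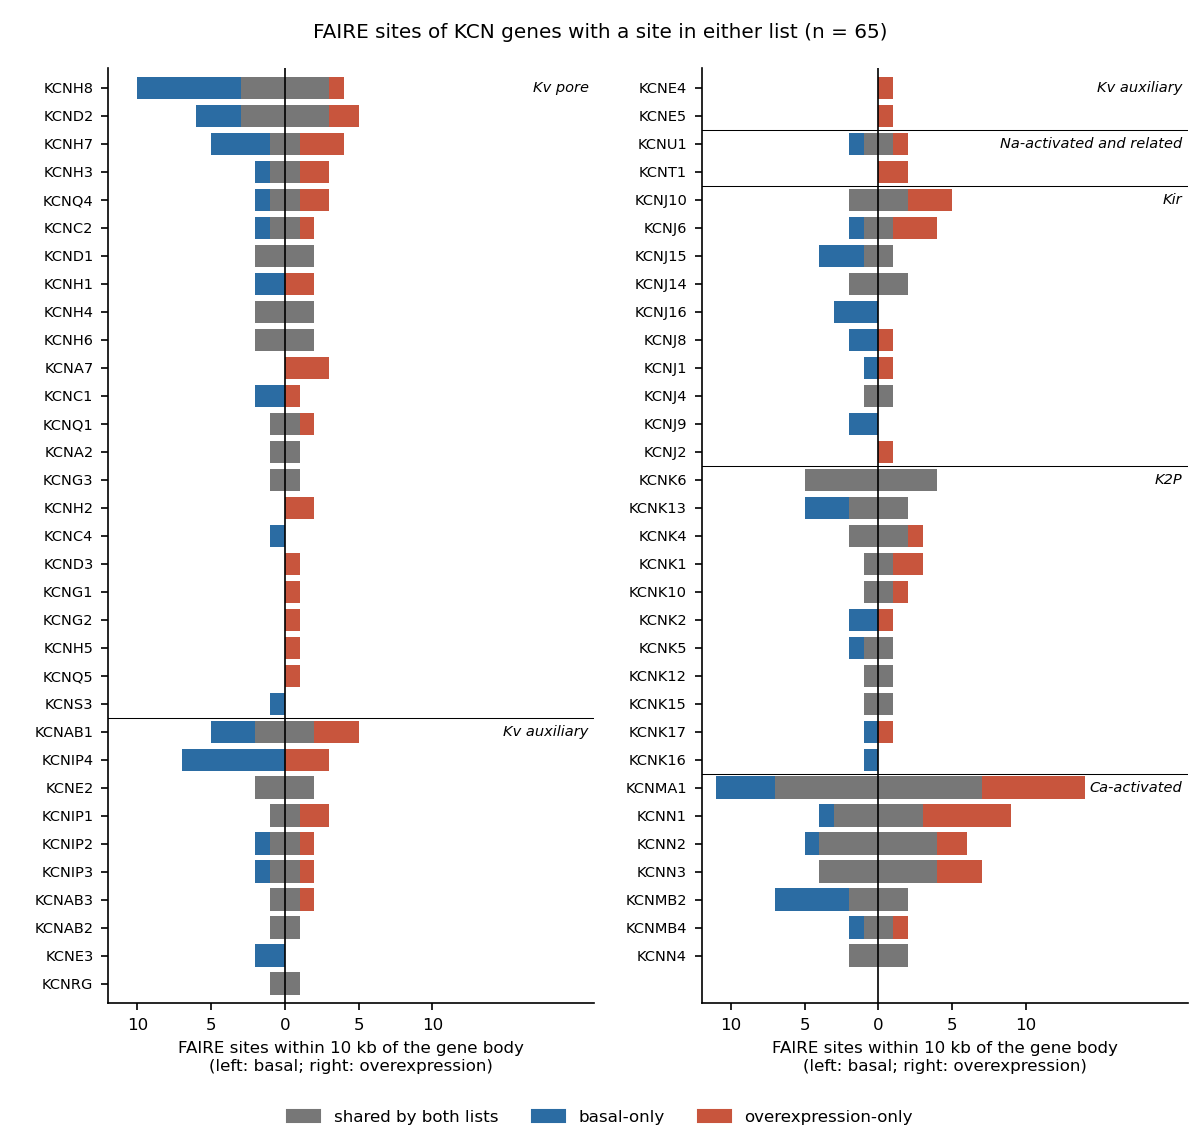
Bars show, for 65 of the 67 potassium channel genes with a site in either list, the number of basal FAIRE sites within 10 kb of the gene body to the left and of overexpression sites to the right, with shared sites in grey, basal-only in blue and overexpression-only in red. KCNMA1 has most sites in both lists (11 and 14), KCNH8 and KCNMB2 lean to the basal side (10 against 4 and 7 against 2) and KCNN1 to the overexpression side (4 against 9).

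Among calcium-activated channels, KCNMA1 (gene body chr10:78629359-79398127, minus strand), the pore of the large-conductance channel, had 11 basal and 14 overexpression sites, more than any other potassium channel gene. Of these 7 were shared in each list, and 10 basal and 13 overexpression sites were intronic. None lay within 1 kb of any of its 36 annotated coding starts, and its shared upstream site was centred at -3698 bp from the nearest start in the basal list, minus meaning upstream. The intronic sites were spread over the gene, as the plot of positions along genes shows. KCNN1 had 4 basal sites, of which 3 were shared, and 9 overexpression sites, of which 6 were overexpression-only, including both promoter sites. The sites downstream of KCNN1, in both lists, lay within 1 kb of a start of ARRDC2. KCNN2 had 5 and 6 sites, with 4 shared in each list, and KCNN3 had 4 and 7, with 4 shared in each. At KCNN2 and KCNN3 the promoter site was shared. KCNMB2, an auxiliary subunit of the KCNMA1 channel, had 7 basal sites of which 2 were shared, and these 2 were its only sites in the overexpression list.

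Among Kv pore genes KCNH8, a channel of the ELK type, had most sites, 10 basal and 4 overexpression. The lists shared 3 of them, and 7 were basal-only against 1 overexpression-only. The shared promoter site of KCNH8 was in an intron, centred 1073 bp from the start, at chr3:19190951-19191199 in the basal list. KCND2, which carries the transient A-type current, had 6 basal and 5 overexpression sites, of which 3 were shared, including a promoter site at the same position in both lists, chr7:119912301-119912499. KCNH7 had 5 and 4 sites with 1 shared, and none at its promoter. KCNQ1, a slowly activating Kv channel, had 1 basal and 2 overexpression sites, and the shared one, intronic, measured 199 bp in the basal list and 349 bp with SF-1 overexpressed. Its auxiliary subunit KCNE1 had no site in either list.

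Among Kv auxiliary genes KCNIP4, which at 1220 kb is the longest of these named genes, had 7 basal and 3 overexpression sites and none of them was shared. All 7 basal sites were intronic, whereas the overexpression sites were 1 promoter and 2 intronic ones. KCNAB1, a beta subunit of Shaker-type channels, had 5 and 5 sites, all intronic, with 2 shared. KCNE2 had 2 shared sites outside the gene, 1 of them within 1 kb of a start of SMIM11. Among the sodium-activated and related channels KCNU1, an alkalinity-gated channel of sperm, had 2 and 2 sites with 1 shared, KCNT1 had 2 overexpression sites and no basal one, and KCNT2 had none.

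**Figure D4:**
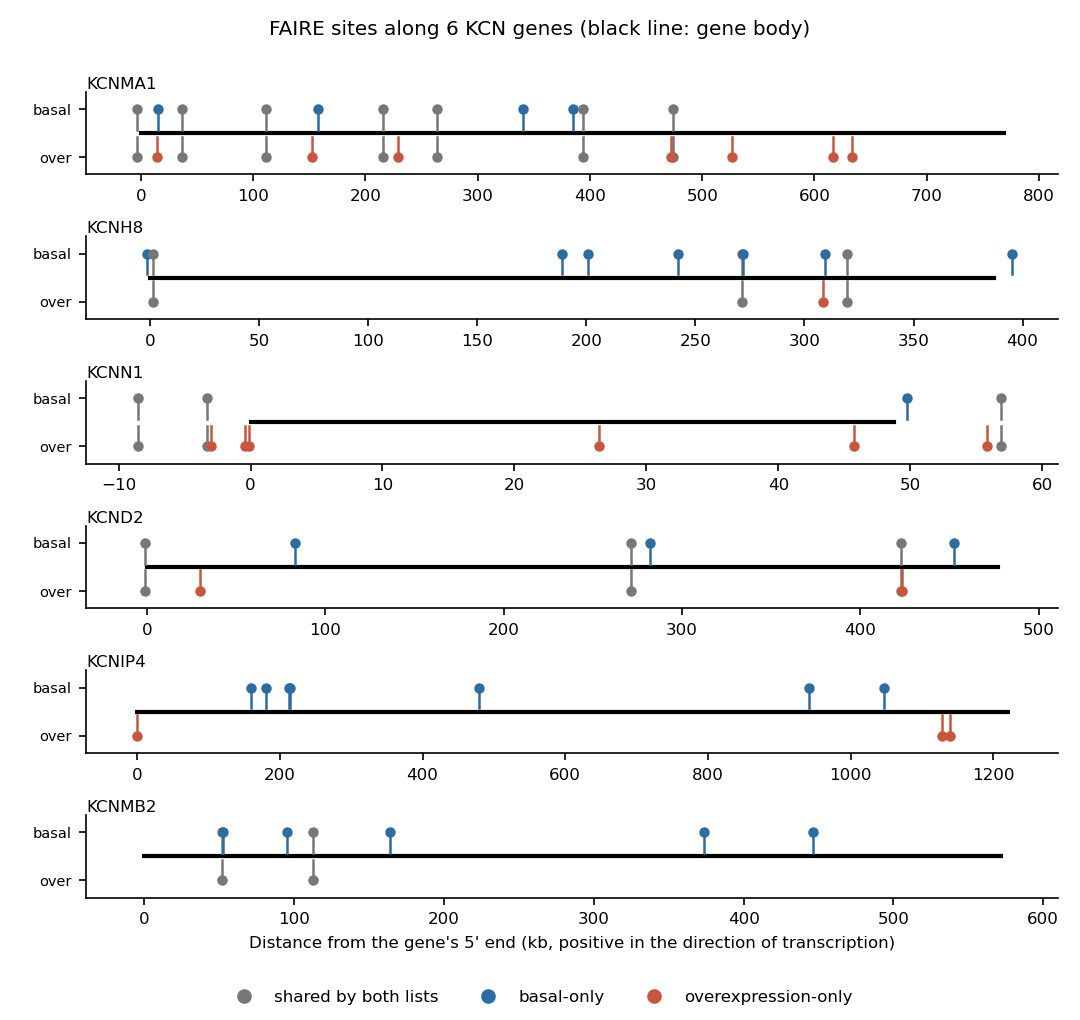
Positions of FAIRE sites along KCNMA1, KCNH8, KCNN1, KCND2, KCNIP4 and KCNMB2, as the distance in kb from the 5' end of the gene (black line: gene body), with basal sites above and overexpression sites below the line and colours for shared (grey), basal-only (blue) and overexpression-only (red) sites. KCNMA1 has 7 shared sites along its body and upstream end, KCNIP4 has none, and at KCNN1 the overexpression-only promoter sites lie at the 5' end.

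Among Kir genes KCNJ10, known from glia and kidney, had 2 basal sites, both shared, and 5 overexpression sites, all of them intronic. One shared site of KCNJ10 lay within 1 kb of a start of PIGM. KCNJ6 had 2 and 4 sites with 1 shared, all intronic. KCNJ15 had 4 basal sites, of which 3 were intronic and basal-only, and its single overexpression site was shared and lay downstream of the gene. Among K2P genes KCNK6 had 5 basal and 4 overexpression sites, all shared and all outside the gene. Each of these lay within 1 kb of a start of another coding gene, YIF1B on the upstream and CATSPERG on the downstream side. KCNK13 had 5 and 2 sites, and both overexpression sites were shared. KCNK4 had 2 and 3, with 2 shared, all outside the gene and within 1 kb of a start of BAD, GPR137 or ESRRA. KCNK2 (TREK-1), a background channel of adrenocortical cells, had 2 basal-only sites, at chr1:215169351-215169599 and chr1:215319701-215319949, and 1 overexpression-only site, at chr1:215288901-215289099, and none was shared or at its promoter. KCNK5 (TASK-2) had a shared promoter site, 199 bp wide in the basal and 249 bp wide in the overexpression list, and 1 basal-only intronic site.

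The study lists genes that changed on expression arrays of this cell line, and some potassium channel genes are among the names. How many of all genes are on these lists was not compared. KCNJ8, listed as lower on SF-1 overexpression, had its promoter site in the basal list alone. KCNMB4, an auxiliary subunit listed as higher on SF-1 overexpression, had a shared promoter site, 299 bp wide in both lists, and 1 condition-only intronic site per list, at chr12:70761551-70761749 in the basal and chr12:70761151-70761499 in the overexpression list. KCNN2, listed as lower on SF-1 knockdown, had a shared promoter site that was 249 bp wide in the basal and 199 bp wide in the overexpression list. KCND2 and KCNC2 are listed for the knockdown of NRSF/REST, KCND2 as lower at basal SF-1 expression and KCNC2 as higher with SF-1 overexpression. KCNC2, a Kv channel of fast-firing neurons, had 2 sites per list, all intronic, with 1 shared. The arrays are other samples, and these genes are too few to relate sites to expression.

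SF-1 words were found in 13 of 78 basal shared sites, or 16.7% (9.18 to 26.8), against 12.1% of all shared basal sites, and in 10 of 77 overexpression shared sites, or 13.0% (6.41 to 22.6), against 11.7%. Among basal-only sites, 2 of 70 held a word, or 2.86% (0.348 to 9.94), against 13.4% of all basal-only sites. Among overexpression-only sites, 7 of 77 did, or 9.09% (3.73 to 17.8), against 14.0%. Words with the same letters in another order, GACATGCA and GACACGCA, were found in 1, 1, 1 and 0 sites of these 4 classes. Over all sites of these classes their shares were 1.045, 0.837, 1.08 and 0.914%. GACACGCA holds the pair CG, which neither SF-1 word does, so the words are alike in letters alone. When 500 bp around the centre of each site were searched in place of the site, an SF-1 word was held by 7.14% of the basal-only class and 15.6% of the overexpression-only class. No share over all sites is given for this window, and the shares of all sites above are for the sites as called, so the 2 cannot be compared. A match describes the letters and does not show that SF-1 was bound.

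The 2 basal-only sites with an SF-1 word were those of KCNIP4 and KCNK13. The 7 overexpression-only ones included those at KCNN3 (399 bp, chr1:154752201-154752599), KCNE5 (249 bp, chrX:108865601-108865849), KCNH7 and KCNJ6 (199 bp each, KCNJ6 with 2) and, by name, KCNH2. The KCNE5 site lay downstream of this auxiliary subunit gene, and the others named were intronic. Shared sites with a word included 2 in introns of KCNMA1 and 1 each in introns of KCND2, KCNN2, KCNJ6 and KCNJ10.

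CTCF is a protein of insulators and chromatin loops. Matches to its consensus, searched with up to 1 mismatch, were found in 20 of 70 basal-only sites, or 28.6% (18.4 to 40.6), against 16.4% of all basal-only sites, and in 14 of 77 overexpression-only sites, or 18.2% (10.3 to 28.6), against 12.8%. In shared sites they were found in 7 of 78 basal ones, or 8.97% (3.69 to 17.6), against 18.5%, and in 8 of 77 overexpression ones, or 10.4% (4.59 to 19.5), against 18.3%. All 3 basal-only intronic sites of KCNJ15 held a CTCF match. The AP-1 words TGACTCA and TGAGTCA were found in 7 basal shared, 7 basal-only, 7 overexpression shared and 2 overexpression-only sites, the last being 2.60% (0.316 to 9.07). Over all sites of these classes the shares were 6.26, 7.76, 5.97 and 5.01%.

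NRSF/REST matches were found in 2, 1, 3 and 3 sites of the 4 classes. These were 2.56% (0.312 to 8.96), 1.43% (0.0362 to 7.70), 3.90% (0.811 to 11.0) and 3.90% (0.811 to 11.0) of sites. The shares of all sites were 1.07, 0.742, 1.12 and 1.03%, and each interval held its share. The matches below are named as a description. The shared ones were at the promoter of KCNH6, a Kv pore of the ERG type, in both lists, at the promoter of KCNK12 in the overexpression list, whose site there was wider than the basal one (499 against 199 bp), and in the intron of KCNN2 in both lists. The basal-only one was in an intron of KCNH7, at chr2:163416501-163416899, and the overexpression-only ones were in introns of KCND2, KCNN1 and KCNJ6. The KCND2, KCNN1 and KCNN2 matches had 1 mismatch and the KCNJ6 match none.

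**Figure D5:**
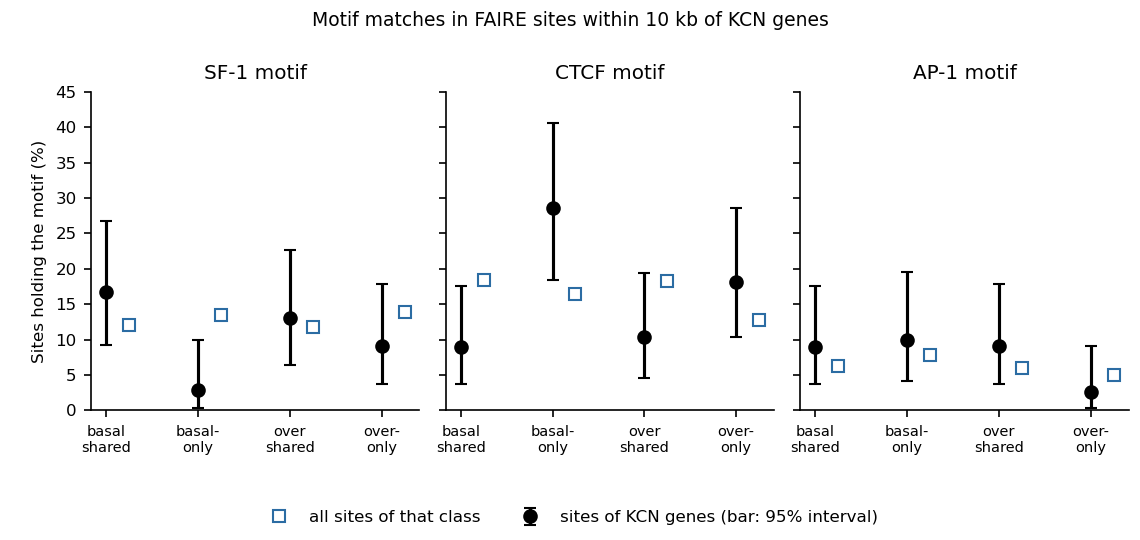
Points give the percentage of FAIRE sites within 10 kb of potassium channel genes that hold an SF-1, CTCF or AP-1 motif, by class of site (basal shared, basal-only, overexpression shared, overexpression-only; bars are 95% intervals), and squares the percentage over all sites of that class. For SF-1 the point of basal-only sites (2.86%) lies below its square (13.4%), and for CTCF the points of both shared classes lie below and that of basal-only sites (28.6%) above their squares.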

How the data were processed

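FAIRE-seq peak lists of 2 libraries, 1 per condition, were analysed, and samples were grouped per the labels. Per the file headers each list is a browser track that gives the coordinates, number, score and strand of every peak. The score deposited by the authors is 1000 for every site and was not used. Reads were mapped to hg19, and CASAVA 1.8 is named in the submitters' processing notes. The peak caller and threshold for FAIRE are not given in the sources used here. All starts lie on a grid of 50 bp, and no read counts were given, so depth is unknown.

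Gene models came from GENCODE release 44 as lifted to GRCh37, which underlies hg19. No site on a nuclear chromosome ran past a chromosome end (0 sites). Promoter sites overlapped 1 kb either side of the start of a coding transcript, sites within 10 kb overlapped the gene body extended by 10 kb, and intronic sites had their centre in the gene body outside exons of coding transcripts (1 site per list lay outside the span of these transcripts). Other coding genes were averaged at the lengths of the potassium channel genes in 20 length bins of equal gene number, crossed with 5 GC bins where stated. Shares have exact (Clopper-Pearson) intervals, ratios exact binomial ones. Counting was tested on simulated data. Python 3.11.15, numpy 2.4.6, scipy 1.17.1 and matplotlib 3.10.9 were used.

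The genes, groups, marker lists, motifs and naming rules were chosen with earlier results of these data known. Named were the 3 genes per group with most sites (ties by symbol), genes with a promoter site in one list alone (values for the 5 widest per list), genes on the array lists of the study, genes with an SF-1 word in a condition-only site, and KCNK2, KCNA4, KCNMA1, KCNK5, KCNQ1 and KCNE1. Gene names alone were taken from the array lists. KCNMB2 and others outside the rule were named after their values were seen, as were the site counts of KCNN3. In the marker lists 1 gene had no entry in the annotation and was left out. A few items of the rule are not reported here.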

Additional observations from a re-analysis of the deposited data

How the results depend on the processing

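Of 125 recomputed values for 27 results, 108 moved by less than their counting interval, or by less than 1.5 times for counts, and 17 moved by more. None changed sign. All 17 followed from settings that keep fewer sites or take another window. The differences from other coding genes were recomputed only with other length bins, with GC content added or without averaging by length. Other windows and site widths were tried for the potassium channel genes alone, so the shares below have no comparison with other genes. With sites under the pooled median width of 249 bp left out, a basal site was within 10 kb of 45.7% of the potassium channel genes, an overexpression site of 52.2%, a basal-only site of 22.8% and a shared site of 29.4%, and 75 basal and 89 overexpression sites were counted. With the gene body alone, the shares were 42.4% basal, 46.7% overexpression and 28.3% shared, and 98 basal sites were counted. With a window of 50 kb, they were 77.2% basal, 84.8% overexpression, 56.5% basal-only, 75.0% overexpression-only and 62.0% shared, with 245 basal and 279 overexpression sites. Promoter shares ranged from 10.9 to 21.7% in the basal and from 16.3 to 27.2% in the overexpression list over all settings tried. The overexpression list had 1.02 to 1.19 times as many sites near these genes as the basal list. Without KCNMA1 it was 1.02. With the 5' end of the gene alone as start, 13.0% had a basal and 17.4% an overexpression promoter site. No paired analysis was possible because each condition had 1 library. Depth is unknown, and unequal depth of the libraries was not tested.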
